A study of Mus musculus with 8 samples.

Results

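The transcripts of 10 genes of the eye lens were followed through RNA-seq libraries of mouse peripheral retina: the alpha crystallin genes Cryaa and Cryab, the beta crystallin genes Cryba1, Cryba2, Cryba4, Crybb1, Crybb2 and Crybb3, and the lens fibre genes Lgsn and Bfsp1. They were taken by symbol from the count tables, which hold all 10 of them among 23284 genes. The retina came from mice at postnatal day 12 in which Cre is driven by the alpha enhancer of Pax6, an element active in the peripheral part of the retina. The Rb-null group (4 libraries) carried the floxed Rb allele. The second group (4 libraries), called TET-MYCN here, is labelled Rb null with TET-MYCN, and its alleles are given as the same Cre, the Rosa26 LSL-RTTA transactivator and the TRE-MYCN transgene. The design text leaves the floxed Rb allele out of its account of the second group, and no label used here states doxycycline. Whether the libraries stem from different animals is not stated, so the spread behind each p-value is that among libraries and may in part be technical.

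Crystallins are the main soluble proteins of the lens. Alpha crystallins are small heat shock proteins that keep other proteins from aggregating, and beta crystallins are oligomeric structural proteins of the beta-gamma fold. Cryab, and to a lesser degree Cryaa and some beta crystallins, are also known from retina, with Cryab found in glia and raised under stress. Lgsn codes for lengsin, a glutamine synthetase relative of lens fibres, and Bfsp1 for filensin, which with the product of Bfsp2 forms the beaded filament of the fibre cell.

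Libraries held 14872131 to 22873979 gene counts. Of the retinal genes, the photoreceptor factor gene Crx was at 477 to 1305 CPM (a count scaled to a common library size, after TMM adjustment), the photoreceptor gene Rcvrn at 68.6 to 791 CPM and Pax6 at 370 to 546 CPM across the 8 libraries. Mycn ranged over 108 to 339 CPM (Rb-null) and 201 to 276 CPM (TET-MYCN), and Rb1 at 138 to 184 and 123 to 179 CPM. Neither gene separated the groups (log2 fold changes of 0.07 ± 0.28 and -0.06 ± 0.14), and both groups are labelled Rb null. The counts are of mouse genes, and whether reads of the MYCN transgene fall under Mycn was not determined. Nor was the part of Rb1 that the floxed allele removes looked at. These values therefore do not show whether the transgene was expressed or Rb was lost. Over all genes, 9 of 15106 tested differed between the groups at an adjusted p under 0.05 in edgeR's quasi-likelihood test, which is 0.0596% (8 higher in TET-MYCN, 0.0530%, and 1 lower, 0.00662%).

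Upstream sequences of members that varied together across libraries, and of 1 that did not (Lgsn), are shown before the values. RefSeq promoter windows on GRCm38.p6 matched 9 of the 10 members. Cryab had no window, so its upstream sequence was not searched for any of the letters below. In the 250 bases before the start site the letters TGCTGA, a recognition half-site of the large Maf factors that act on crystallin genes, occurred on either strand in 8 of these 9 windows, against 16.1% of all 32851 windows of that length. TATAAA occurred in 3 of the 9, against 12.4% of all windows. GAANNTTC, a core of the heat shock element, occurred in 0 of the 9, against 6.69%. Crybb2 was the member without TGCTGA in its window, although its values over the libraries followed those of Cryaa. Lgsn, whose values did not follow them, had both TGCTGA and TATAAA. The part of these letters in the members' values was not tested. A match of these letters describes the sequence and shows no binding. Below, matches to TGCTGA (or TCAGCA, its other strand) and TATAAA are in capitals, and the windows are Cryaa at chr17:31677681-31677930 (plus strand), Cryba4 at chr5:112252519-112252768 (minus strand), Crybb1 at chr5:112255570-112255819 (plus strand), Crybb2 at chr5:113070118-113070367 (minus strand) and Lgsn at chr1:31176185-31176434 (plus strand).
Cryaa: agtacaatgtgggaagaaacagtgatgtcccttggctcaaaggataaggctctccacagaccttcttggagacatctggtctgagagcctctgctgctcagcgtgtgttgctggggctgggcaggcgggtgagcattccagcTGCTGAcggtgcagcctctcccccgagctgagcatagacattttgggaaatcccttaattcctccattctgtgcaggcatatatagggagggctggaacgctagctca
Cryba4: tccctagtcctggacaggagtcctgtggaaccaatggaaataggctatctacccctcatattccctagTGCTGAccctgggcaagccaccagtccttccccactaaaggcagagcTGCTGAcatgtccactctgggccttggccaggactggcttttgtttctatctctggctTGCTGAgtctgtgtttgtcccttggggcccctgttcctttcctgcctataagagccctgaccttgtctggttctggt
Crybb1: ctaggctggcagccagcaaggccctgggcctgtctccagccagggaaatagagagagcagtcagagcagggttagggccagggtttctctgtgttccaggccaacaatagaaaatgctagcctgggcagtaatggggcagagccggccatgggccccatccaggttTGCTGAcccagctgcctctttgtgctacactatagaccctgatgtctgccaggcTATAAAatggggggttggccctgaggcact
Crybb2: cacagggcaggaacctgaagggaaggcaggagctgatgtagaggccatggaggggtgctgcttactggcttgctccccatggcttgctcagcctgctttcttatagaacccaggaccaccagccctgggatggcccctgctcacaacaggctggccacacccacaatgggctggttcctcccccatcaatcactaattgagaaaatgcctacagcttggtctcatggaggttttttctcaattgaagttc
Lgsn: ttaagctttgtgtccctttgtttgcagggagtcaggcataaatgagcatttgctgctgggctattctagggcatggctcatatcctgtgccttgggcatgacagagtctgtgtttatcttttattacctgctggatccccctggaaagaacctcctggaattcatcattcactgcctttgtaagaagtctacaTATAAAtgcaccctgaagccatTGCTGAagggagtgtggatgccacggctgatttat

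Cryba4 and Crybb1 are next to each other among protein-coding genes on chromosome 5 in RefSeq GRCm38.p6, and so are Crybb2 and Crybb3. The other 6 members lie on chromosomes 1, 2, 9, 11 and 17, with Cryba2 and Lgsn both on chromosome 1 but not adjacent. Cryab lies beside Hspb2, another small heat shock protein gene.

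**Figure D1:**
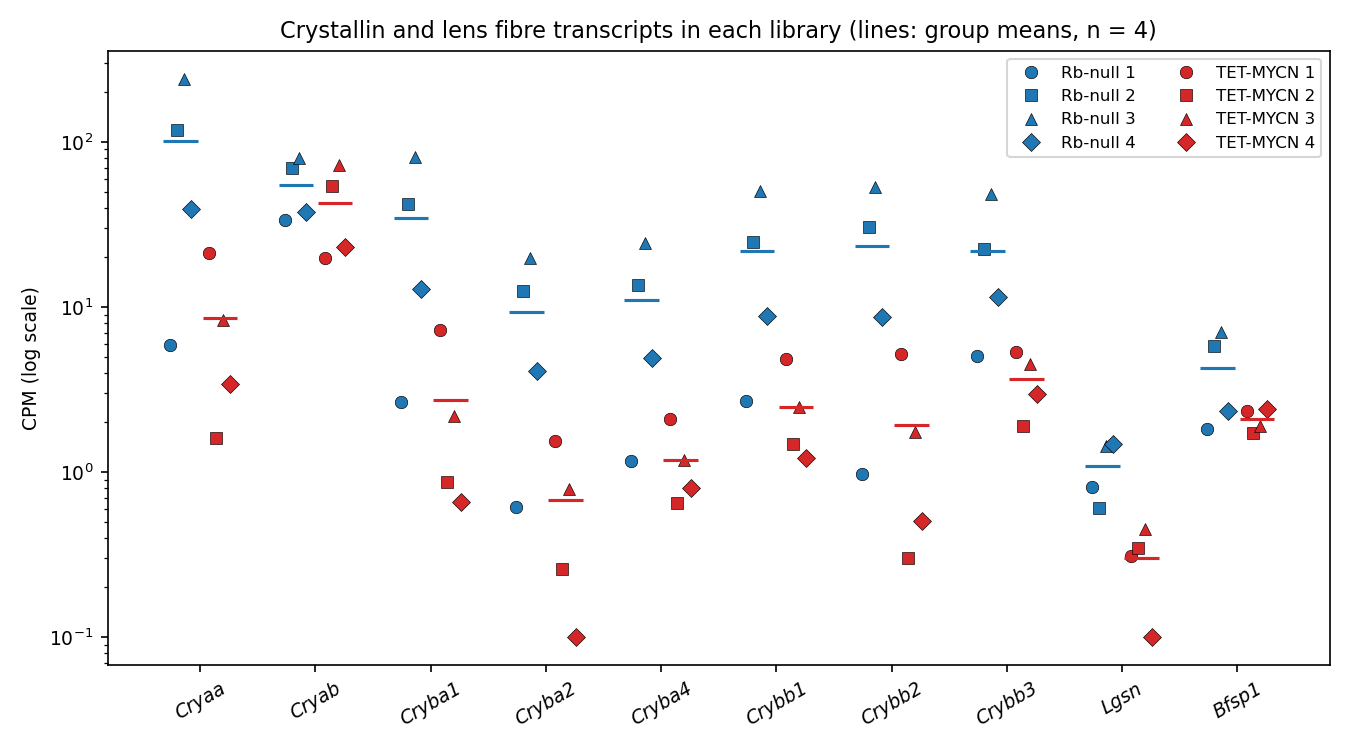
CPM on a log axis for the 10 members in each of the 8 libraries, blue for Rb-null and red for TET-MYCN, with 1 symbol per replicate number and a line at each group mean. Rb-null 3 and Rb-null 2 stand highest and Rb-null 1 lies within the TET-MYCN range for Cryaa and all beta crystallins. The groups overlap widely for Cryab and are apart only for Lgsn.

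Together the members took a small and very uneven part of each library. They held 0.00544%, 0.0347%, 0.0596% and 0.0132% of the gene counts in Rb-null 1 to 4, and 0.00700%, 0.00637%, 0.00960% and 0.00354% in TET-MYCN 1 to 4. For the highest, Rb-null 3, the exact 95% binomial interval was 0.0584% to 0.0608%, and for the lowest, TET-MYCN 4, it was 0.00328% to 0.00381%. Such intervals cover counting error only, and the differences between libraries of a group were far wider than them. Summed over the 6 beta crystallins, the level was 13.1, 146, 277 and 50.9 CPM in Rb-null 1 to 4 and 26.3, 5.45, 12.9 and 6.24 CPM in TET-MYCN 1 to 4. The group means were 122 ± 118 and 12.7 ± 9.63 CPM (SD, n = 4 each), so the SD of the Rb-null libraries nearly equalled their mean, and the groups overlapped through Rb-null 1, which lay below TET-MYCN 1. In bulk tissue, fewer cells of a type and less RNA per cell cannot be told apart.

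Among the alpha crystallins, Cryaa, the form most restricted to lens, had the highest level per length of all members in Rb-null 2 and 3. It stood at 5.86, 118, 242 and 39.2 CPM in Rb-null 1 to 4 and at 21.1, 1.60, 8.38 and 3.42 CPM in TET-MYCN 1 to 4. The Rb-null values thus spanned 41.3-fold (95% counting interval 34.3 to 50.1, exact binomial) and the TET-MYCN values 13.2-fold (9.38 to 19.1), and the groups overlapped. The log2 fold change, TET-MYCN against Rb-null, was -3.57 ± 1.09 (SE; adjusted p = 0.20, edgeR's quasi-likelihood test), which did not pass.

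Cryab, the broadly expressed stress-responsive form, behaved otherwise. Its values were 33.8, 69.3, 79.9 and 37.8 CPM in Rb-null 1 to 4 and 19.9, 53.9, 72.7 and 23.1 CPM in TET-MYCN 1 to 4. Here TET-MYCN 2, the library lowest in Cryaa, was among the higher 4, and TET-MYCN 1, the highest of its group in Cryaa, was the lowest of all. The means were 55.2 ± 22.9 and 42.4 ± 25.4 CPM (SD, n = 4 each), and the log2 fold change was -0.38 ± 0.43 (adjusted p = 0.723).

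The beta crystallins followed Cryaa closely. Cryba1, which gives the beta A3 and A1 chains, was at 2.65, 42.1, 80.9 and 12.9 CPM in Rb-null 1 to 4 and 7.29, 0.865, 2.19 and 0.655 CPM in TET-MYCN 1 to 4. Cryba2 had 0.611, 12.6, 19.8 and 4.11 CPM, and in the second group 1.54, 0.260, 0.787 and 0.101 CPM. For Cryba4 the levels were 1.17, 13.5, 24.4 and 4.91 CPM, and in the second group 2.10, 0.649, 1.18 and 0.806 CPM. In all 3 of these acidic chains Rb-null 3 was highest, followed by Rb-null 2, Rb-null 4 and then TET-MYCN 1, while Rb-null 1 lay below TET-MYCN 1.

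The basic chains showed the same order at the top. Crybb1 was at 2.70, 24.8, 50.7 and 8.82 CPM in Rb-null 1 to 4 and at 4.82, 1.47, 2.47 and 1.21 CPM in TET-MYCN 1 to 4. Crybb2, a major basic chain of the lens, had 0.968, 30.7, 53.4 and 8.75 CPM and then 5.19, 0.303, 1.74 and 0.504 CPM. Levels of Crybb3 were 5.04, 22.4, 48.2 and 11.4 CPM, then 5.31, 1.90, 4.50 and 2.97 CPM. Crybb2 spanned 55.2-fold within the Rb-null group (95% counting interval 35.1 to 92.2), the widest of the 10 members there, and Crybb3 spanned 9.56-fold (7.74 to 11.9), the narrowest of the beta crystallins.

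All 6 beta crystallins had negative log2 fold changes that did not pass over all genes tested. The values ran from -3.84 ± 0.99 for Cryba2 to -2.58 ± 0.62 for Crybb3, through -3.70 ± 1.02 for Cryba1, -3.65 ± 1.11 for Crybb2, -3.24 ± 0.80 for Cryba4 and -3.15 ± 0.81 for Crybb1. By edgeR, adjusted p ranged from 0.158 to 0.196. The biological coefficient of variation, which edgeR estimates from the spread within groups, was 0.561 to 0.958 for the 6, against a median of 0.171 over all genes tested, and 0.886 for Cryaa and 0.420 for Cryab.

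The fibre genes were the scarcest members. Lgsn had 0.815, 0.608, 1.44 and 1.48 CPM in Rb-null 1 to 4 and 0.309, 0.346, 0.450 and 0.101 CPM in TET-MYCN 1 to 4, from 10 to 22 and 2 to 8 reads per library. It was the 1 member whose groups did not overlap, where 7.65% of all genes tested do not (3.29% as lower in TET-MYCN), and its log2 fold change was -1.82 ± 0.45 (adjusted p = 0.163). None of the TET-MYCN libraries reached the level that the filter on low counts asks of 4 libraries (0.588 CPM), so Lgsn was tested only through its Rb-null values and had to differ. At this depth neighbouring libraries could not be told apart, as the exact 95% Poisson intervals of 0.291 to 1.12 CPM in Rb-null 2 and 0.194 to 0.886 CPM in TET-MYCN 3 show.

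Bfsp1 was at 1.83, 5.77, 7.08 and 2.36 CPM in Rb-null 1 to 4 and 2.35, 1.73, 1.91 and 2.42 CPM in TET-MYCN 1 to 4. Rb-null 2 and 3 were again highest, and the remaining 6 libraries lay close together between 1.73 and 2.42 CPM. The log2 fold change was -1.01 ± 0.41 (adjusted p = 0.281).

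Read over all 10 members, 0 passed the adjusted threshold with edgeR, where 0.0596% of all genes did. At an unadjusted p under 0.05, 9 of the 10 were lower in the TET-MYCN libraries and 0 higher. Without Lgsn, which had to differ, this is 8 of 9. Of all genes tested, 15.8% had such a p in either direction and 7.72% as lower. The members are not separate results, since 7 of them share the same top 4 libraries in the same order. They were also chosen with earlier results of these data known, so such counts only describe them. The median log2 fold change of the 10 was -3.19, beside 0.01 over all genes tested. DESeq2 called 7 of the 10 as lower, where it called 3.51% of all genes in either direction and 1.37% as lower, with adjusted p from 0.0147 for Cryba4 to 0.0464 for Cryaa. Without Lgsn that is 6 of 9. Crybb2 (0.0664), Bfsp1 (0.171) and Cryab (0.801) did not pass there, and limma-voom called 0 of the 10, with 7 at an unadjusted p under 0.05.

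These values rest heavily on Rb-null 2 and Rb-null 3. For 9 of the 10 members these were the highest Rb-null libraries. Leaving them out therefore had to bring those log2 fold changes nearer to 0 or past it, and it also leaves fewer libraries to test. Without both, 8 of the 10 members were negative, 2 had an unadjusted p under 0.05 as lower (Crybb3 and Lgsn, the latter of which had to differ, where 4.29% of all genes did in that fit) and 0 passed with adjustment. The log2 fold changes then ran from -1.83 for Cryba2 to -1.17 for Crybb3 among the beta crystallins, and Cryaa was at -1.39. Cryab and Bfsp1 turned to 0.25 and 0.01, whereas Lgsn stayed at -1.90. Without Rb-null 3 alone the beta crystallins ran from -3.15 to -1.83, Cryaa was at -2.67, and Bfsp1 (-0.66) and Cryab (-0.15) were nearer to 0. Leaving out TET-MYCN 1, the library of its group highest in Cryaa and the beta crystallins, gave -4.54 for Cryaa, -4.84 for Cryba1 and -4.84 for Crybb2, and -0.16 for Cryab. Cryab was at -0.77 without TET-MYCN 3, -0.17 without TET-MYCN 4 and -0.25 without Rb-null 2. Another fit, added after seeing the data, left out TET-MYCN 3 and Rb-null 1, the lowest Rb-null library for the same 9 members. There all 10 members were negative, the beta crystallins ran from -4.37 to -3.05, and 0 members passed with adjustment.

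**Figure D2:**
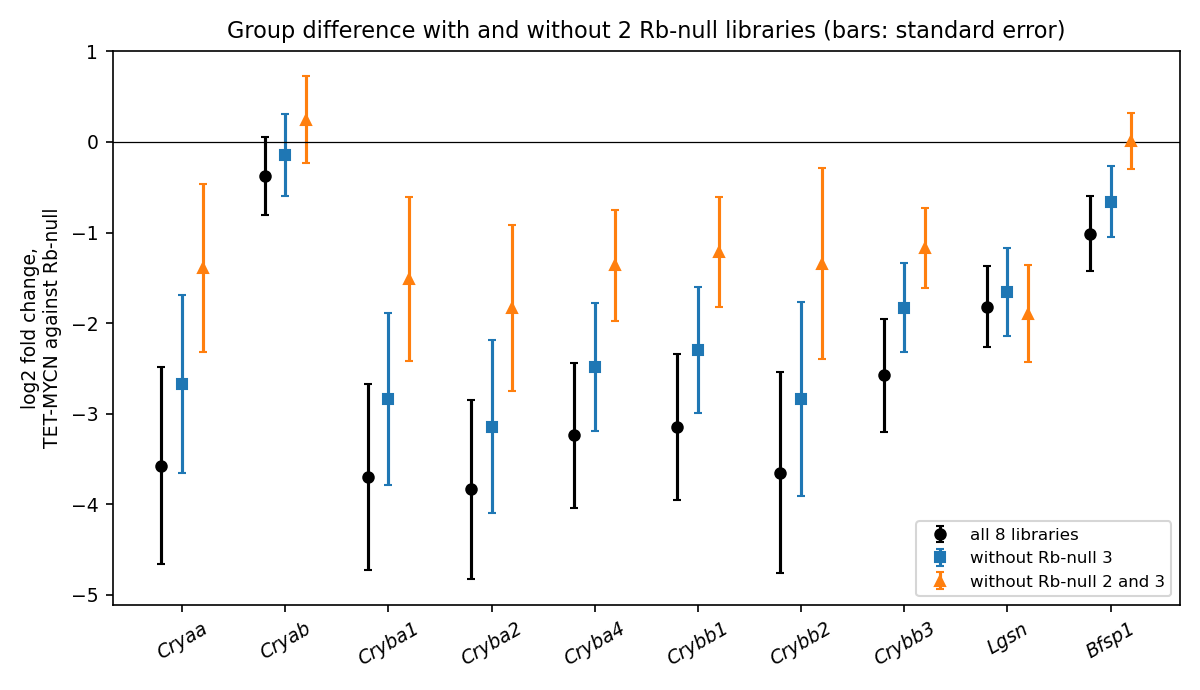
Log2 fold change of each member, TET-MYCN against Rb-null, with its standard error, from edgeR's fit over all genes with all 8 libraries (black circles), without Rb-null 3 (blue squares) and without Rb-null 2 and 3 (orange triangles). The beta crystallins and Cryaa move towards 0 as the libraries are left out, Cryab and Bfsp1 end at or just above 0, and Lgsn stays between -1.90 and -1.65. The libraries left out are the highest Rb-null libraries for every member but Lgsn.

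The members were also compared by how they vary together over the libraries. Of the 10, 9 were ordered Rb-null 3, 2, 4 and 1 from highest to lowest within the Rb-null group, with Lgsn as the exception. Cryaa and all 6 beta crystallins, 7 members, had the same 4 libraries on top in the same order, namely Rb-null 3, 2 and 4 and then TET-MYCN 1. For 8 members TET-MYCN 1 exceeded Rb-null 1, the exceptions being Cryab and Lgsn. The share of all genes tested with each of these orders was not computed, so the counts only describe the members. To measure likeness, the log2 CPM of each gene was centred on its mean over the 8 libraries and set against the mean of the beta crystallins (the other 5 for a beta crystallin), as the root mean square difference. It was 0.29 for Crybb1, 0.37 for Cryba4, 0.40 for Cryba2, 0.46 for Cryba1, 0.47 for Cryaa, 0.65 for Crybb2 and 0.74 for Crybb3. For Bfsp1, Lgsn and Cryab it was 1.38, 1.46 and 1.74. The 7 close members had root mean square deviations of their own of 1.43 to 2.42, larger than their difference from that mean, whereas those of Cryab, Bfsp1 and Lgsn were 0.70 to 0.92, smaller than theirs.

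**Figure D3:**
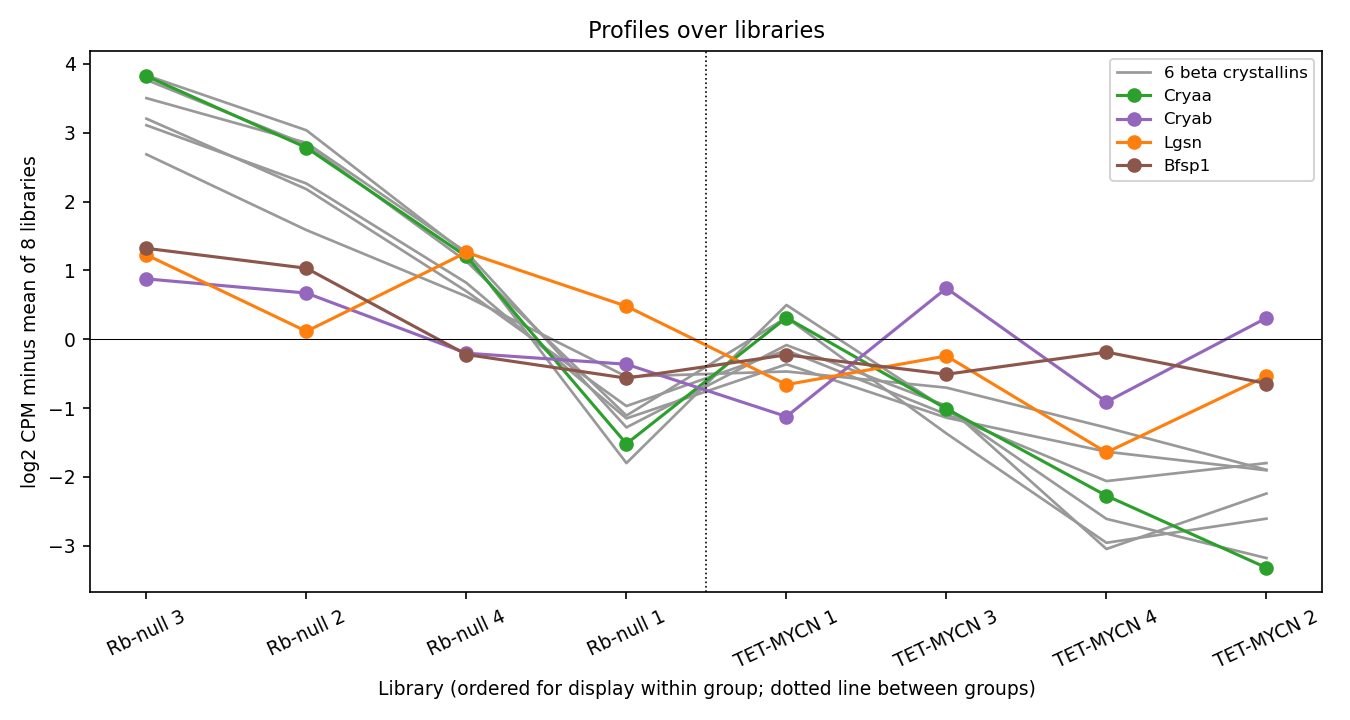
Log2 CPM minus the mean over the 8 libraries, by library, for the 6 beta crystallins (grey), Cryaa (green), Cryab (purple), Lgsn (orange) and Bfsp1 (brown), with libraries in an order chosen for display. Cryaa lies within or at the edge of the grey lines in all 8 libraries, while Cryab peaks again in TET-MYCN 3, Lgsn is as high in Rb-null 4 as in Rb-null 3, and Bfsp1 is flat outside Rb-null 2 and 3.

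The genes nearest to the beta crystallins by this measure were other crystallins. Among 14481 genes with a mean of at least 1 CPM, the closest outside the members were Crygs (0.36), Cryge (0.52), Crygd (0.57), Crygf (0.60), Crygc (0.63), Crygb (0.70) and Cryga (0.81), which are all of the gamma crystallin family. After them came B930025P03Rik (1.303), then Gm11549 (1.40) and Lynx1 (1.41). Crygs stood at 1.27, 22.4, 43.4 and 6.06 CPM in Rb-null 1 to 4 and 3.58, 0.303, 1.12 and 0.403 CPM in TET-MYCN 1 to 4, with the same 4 libraries on top as for Cryaa. Likeness is a description over 8 libraries that share their depth and scaling. Nearest to Cryaa were Crybb2 (0.20), Crygs (0.26), Cryba1 (0.40), Cryba2 (0.51) and Crygd (0.54). The genes of gamma crystallins A to F are similar in sequence, so that some reads can align to several of them. Such reads are listed apart, outside the genes, so the levels of gamma crystallins A to F are uncertain.

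Cryab had other neighbours. Its nearest genes were Oas1e (0.23), Frzb (0.32), which codes for a secreted Wnt antagonist, Nxph2 (0.35), the lysophospholipase gene Enpp2 (0.36) and the glypican gene Gpc5 (0.37), and 563 genes lay nearer to the beta crystallins than Cryab did. Oas1e and Gpc5 were scarce, with means of 1.17 and 1.07 CPM over the libraries, so their places are loose. Frzb stood at 17.7, 22.7, 28.2 and 21.5 CPM in Rb-null 1 to 4 and 9.51, 17.6, 22.1 and 9.22 CPM in TET-MYCN 1 to 4. Like Cryab, it was low in TET-MYCN 1 and 4. Müller glia markers, summed over Glul, Rlbp1, Slc1a3, Kcnj10, Aqp4 and Vim, were at 2450, 2681, 3600 and 3205 CPM and 1415, 1782, 2185 and 1527 CPM, also lowest in TET-MYCN 1 and 4. Vim alone of these went the other way there, at 346, 312, 306 and 370 CPM in TET-MYCN 1 to 4. Among the Rb-null libraries the sum was second highest in Rb-null 4, where Cryab was at 37.8 CPM. Of the 6 marker genes, 5 had negative log2 fold changes and 0 passed, the median was -0.72, and their part in the Cryab values was not tested.

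Lgsn, the fibre gene that did not follow the crystallins, lay nearest to Pcp2 (0.19), Bhlhe23 (0.20), Grm6 (0.25), Gng13 (0.26) and Gabrr1 (0.27), in a search added after its values were seen. These are genes known from bipolar cells of the retina, Grm6 being the glutamate receptor of ON bipolar cells and Bhlhe23 a transcription factor of rod bipolar cells. Pcp2 stood at 32.6, 20.5, 55.2 and 60.3 CPM in Rb-null 1 to 4 and 14.7, 16.7, 23.8 and 9.72 CPM in TET-MYCN 1 to 4, with Rb-null 2 the lowest of its group as for Lgsn and TET-MYCN 4 the lowest of all. Since Lgsn rests on 2 to 22 reads per library, its place among these neighbours is loose. Bfsp1 lay nearest to Prex2 (0.36), 4930412C18Rik (0.41), Myocd (0.42), 1700003E16Rik (0.43) and 1700019D03Rik (0.43), in the same added search, with the lens channel gene Mip the sixth at 0.43.

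**Figure D4:**
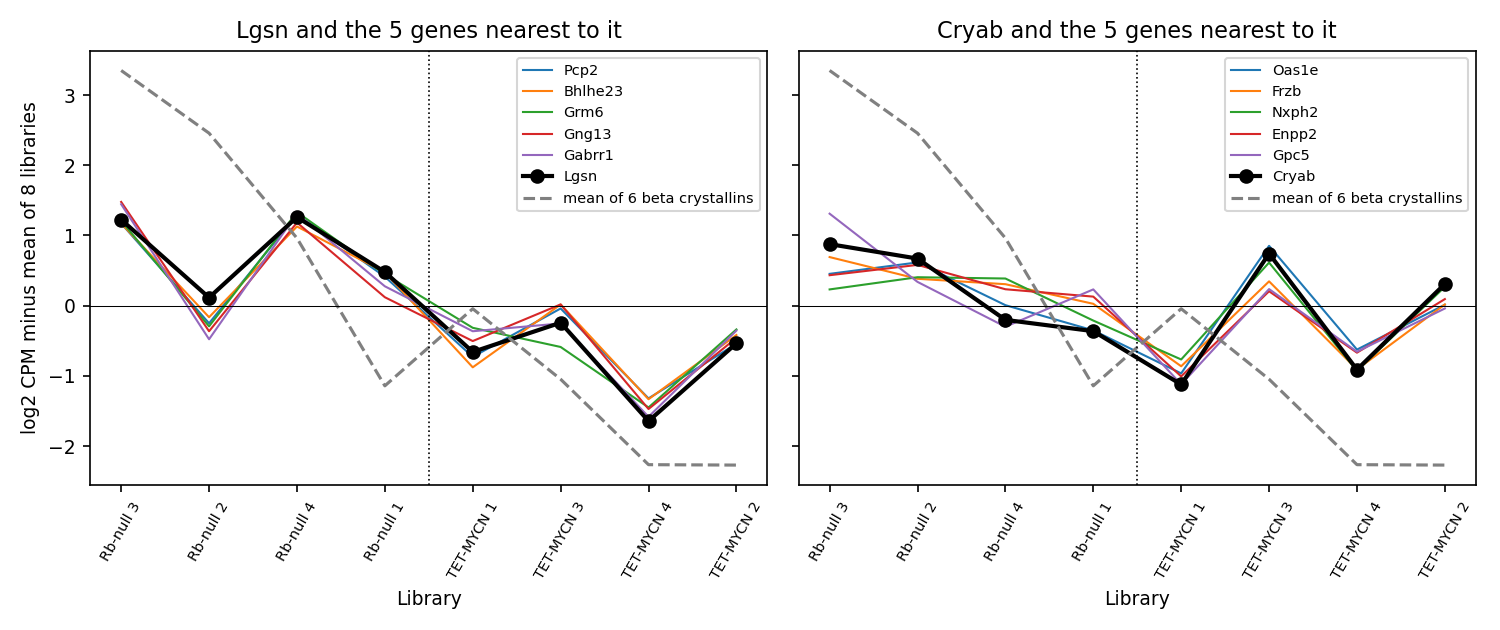
Log2 CPM minus the mean over the 8 libraries for Lgsn (left) and Cryab (right) in black, the 5 nearest genes outside the members in colour, and the mean of the 6 beta crystallins as a dashed grey line. Libraries are drawn in the order Rb-null 3, 2, 4, 1 and TET-MYCN 1, 3, 4, 2. Lgsn and its neighbours are lowest of the Rb-null group in Rb-null 2, and Cryab and its neighbours are higher in TET-MYCN 3 than in TET-MYCN 1, while the dashed line has Rb-null 2 second highest and TET-MYCN 3 below TET-MYCN 1.

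The make-up of the beta crystallin reads also shifted with their amount. Crybb3 gave 15.3% (95% exact binomial interval 13.9% to 16.8%) of the beta crystallin reads in Rb-null 2 and 17.4% (16.2% to 18.5%) in Rb-null 3, the richest libraries. In Rb-null 4 and TET-MYCN 1, of middle level, it gave 22.5% (19.5% to 25.6%) and 20.2% (16.5% to 24.4%). Where beta crystallin reads were few its share was 38.4% (32.4% to 44.6%) in Rb-null 1, 34.9% (26.6% to 43.9%) in TET-MYCN 2, 34.9% (28.8% to 41.5%) in TET-MYCN 3 and 47.6% (38.5% to 56.7%) in TET-MYCN 4. Those 4 intervals lie above the intervals of the 4 richer libraries, and the 4 poorer libraries come from both groups. Crybb2 went the other way, with 21.0% (19.4% to 22.7%) and 19.3% (18.1% to 20.5%) in Rb-null 2 and 3 but 7.36% (4.49% to 11.3%) in Rb-null 1, 5.56% (2.26% to 11.1%) in TET-MYCN 2 and 8.06% (3.94% to 14.3%) in TET-MYCN 4. In TET-MYCN 3 its share was 13.5% (9.39% to 18.7%), which overlaps that of TET-MYCN 1 at 19.8% (16.1% to 23.9%). Cryba1 also gave less where reads were few. Its share was 28.8% and 29.2% in Rb-null 2 and 3, and 20.2% in Rb-null 1. In TET-MYCN 2 to 4 it was 15.9%, 17.0% and 10.5%. Over all libraries Cryba2, Cryba4 and Crybb1 gave 1.61% to 8.60%, 8% to 12.9% and 17.0% to 27.0%. These shares are read counts without correction for length, which is the same in every library.

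**Figure D5:**
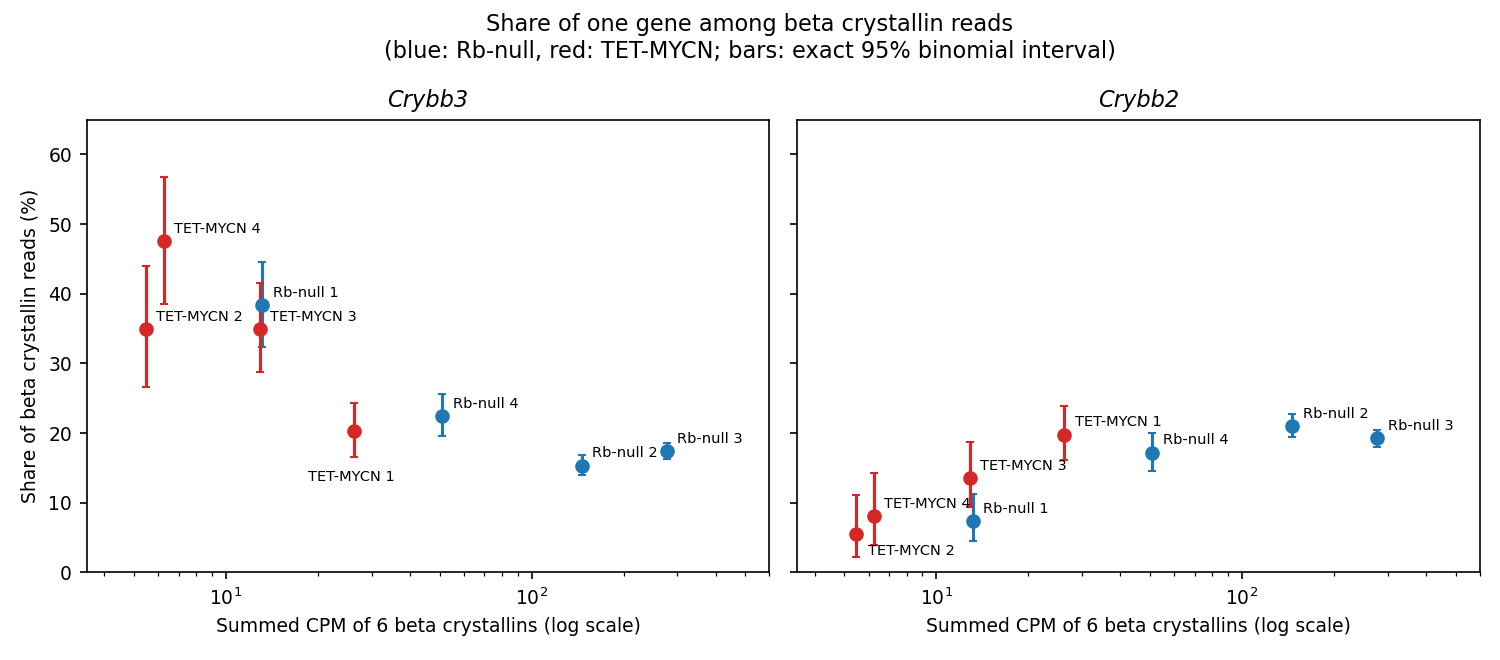
Share of beta crystallin reads that came from Crybb3 (left) and Crybb2 (right), with the exact 95% binomial interval, against the summed CPM of the 6 beta crystallins on a log axis, for 4 Rb-null (blue) and 4 TET-MYCN (red) libraries. The share of Crybb3 is 34.9% to 47.6% in the 4 libraries with the fewest beta crystallin reads and 15.3% to 22.5% in the other 4, and Crybb2 has its lowest shares in the poorer libraries.

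Rb-null 2 and 3, the richest libraries, differed from each other as well. Rb-null 3 exceeded Rb-null 2 by 2.06-fold for Cryaa (95% counting interval 1.95 to 2.17) and by 1.57-fold to 2.15-fold for the beta crystallins, but by 1.15-fold for Cryab (1.06 to 1.25). The gamma crystallins exceeded by 1.94-fold for Crygs (1.70 to 2.20) up to 4.48-fold for Cryga (3.70 to 5.45). The levels of gamma crystallins A to F are uncertain, as given above. In contrast Mip, the water channel of fibre cells, and Lim2, a fibre membrane protein gene, both named after their values were seen, were lower in Rb-null 3, at ratios of 0.515 (0.393 to 0.671) and 0.569 (0.350 to 0.908). Mip had 178 and 85 reads in Rb-null 2 and 3 and 35 to 66 in the other 6 libraries, and Lim2 had 55 and 29 reads there and 0 to 7 elsewhere. These intervals compare 2 libraries by counting error alone.

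Per length, Cryaa led in the rich libraries and Cryab in the others. Dividing by the longest protein-coding transcript of GENCODE M21 (GRCm38), Cryaa had 79.9 ± 82.8 CPM per kilobase in the Rb-null group (SD, n = 4), followed by Cryab at 49.4 ± 20.5, Cryba1 at 44.5 ± 45.1, Crybb2 at 25.9 ± 26.1, Crybb1 at 24.7 ± 24.3, Crybb3 at 24.4 ± 21.3, Cryba4 at 13.6 ± 12.8, Cryba2 at 12.9 ± 12.0, Bfsp1 at 1.796 ± 1.08 and Lgsn at 0.561 ± 0.228. Only Bfsp1 and Lgsn, the last neighbours in that order, had ranges apart, since the libraries spread so widely. Within libraries more of the order held: Cryba1 exceeded Crybb2, Crybb3 exceeded Cryba4, and Cryba2 exceeded Bfsp1 in 4 of 4 Rb-null libraries, while Cryaa exceeded Cryab in 2 of 4. In the TET-MYCN group Cryab came first at 38.0 ± 22.7 CPM per kilobase and was apart from Cryaa, the next, at 6.82 ± 6.96. There Crybb3 followed at 4.12 ± 1.71, ahead of Cryba1 at 3.54 ± 3.99, Crybb1 at 2.83 ± 1.86, Crybb2 at 2.14 ± 2.50, Cryba4 at 1.47 ± 0.80, Cryba2 at 0.935 ± 0.904, Bfsp1 at 0.886 ± 0.141 and Lgsn at 0.156 ± 0.0756. Of these later neighbours only Bfsp1 and Lgsn had ranges apart.

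Other genes of the lens were read from a list of 34, of which 23 were tested. Over all genes 0 passed in either direction, 17 were negative and 6 positive, and the median log2 fold change was -0.44. The 7 tested gamma crystallins made up the strongly negative end, from -3.81 ± 1.05 for Crygs to -3.29 ± 0.98 for Cryga, with adjusted p of 0.164 to 0.191 in edgeR. DESeq2 called 3 of the 7 as lower, Crygf (adjusted p = 0.0312), Crygs (0.0356) and Cryge (0.0440). Without Rb-null 2 and 3 they ran from -2.54 to -1.46. Mip had -0.96 ± 0.48 (adjusted p = 0.363), and 0.22 without Rb-null 2 and 3. Bfsp2, the beaded filament partner of Bfsp1, had 0.25 ± 0.52 (adjusted p = 0.866). Slc7a11, the cystine transporter, which many tissues express, had 1.73 ± 0.26 (adjusted p = 0.0632) with groups that did not overlap, and passed with DESeq2 (adjusted p = 2.99e-06).

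The abundant genes of that list are expressed in retina as well as in lens, and did not follow the crystallins. The cadherin gene Cdh2 had a log2 fold change of -0.02 ± 0.12, the adhesion molecule gene Nrcam -0.25 ± 0.14, the transcription factor genes Prox1, Hmx1 and Maf 0.01 ± 0.32, 0.40 ± 0.21 and -0.17 ± 0.25, Caprin2 -0.10 ± 0.10 and Gcnt2 0.06 ± 0.13. Tdrd7, a granule protein gene of lens fibres, had -0.96 ± 0.34 (adjusted p = 0.232) and stood at 72.1 to 229 CPM in Rb-null and 43.7 to 95.4 CPM in TET-MYCN libraries. The signs of Cdh2, Prox1 and, without Rb-null 2 and 3, Maf turned when libraries were left out.

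Of the lens cell markers beyond the members, Crygs, Mip and Lim2 are given above, all highest in Rb-null 2 or 3. Bfsp2 was at 1.17, 2.55, 4.06 and 1.35 CPM in Rb-null 1 to 4 and 1.79, 1.73, 1.52 and 5.69 CPM in TET-MYCN 1 to 4. Birc7 had 1 to 5 reads per Rb-null library and 2 to 26 per TET-MYCN library. Foxe3, the transcription factor of lens epithelium, was at 0 reads in 5 libraries with at most 2 in the others, and the fibre connexin gene Gja3 was at 0 in 4 with at most 4. Their part in the members' values was not tested. Cornea markers (Krt12, Krt5, Krt14, Aldh3a1 and Kera) summed to 0.729 to 4.51 and 0.705 to 4.803 CPM. The rod gene Sag, coding for arrestin, was highest in Rb-null 3 at 3791 CPM and lowest of that group in Rb-null 2 at 833 CPM. Pigment epithelium markers (7 of 8 in the files) summed to 50.3, 16.4, 38.5 and 28.9 CPM in Rb-null 1 to 4 and 49.8, 17.3, 29.5 and 65.1 CPM in TET-MYCN 1 to 4. The part of either in the members' values was not tested.

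Relatives of the alpha crystallins showed little of this pattern. Of 11 genes for small heat shock proteins and heat shock factors, 8 were tested, 5 negative and 3 positive, with a median of -0.10 and 0 that passed. The chaperone gene Hspb6 had -0.64 ± 0.26 (adjusted p = 0.278), Hspb8 -0.45 ± 0.20, Hspb1 -0.44 ± 0.21 and Hspb2, the neighbour of Cryab on chromosome 9, 0.49 ± 0.33. The factors Hsf4, which acts on lens crystallin genes, Hsf2 and Hsf1 had -0.11 ± 0.22, -0.08 ± 0.13 and 0.07 ± 0.11, and Hspb11 had 0.03 ± 0.17. Hspb2 stood at 0.866, 1.28, 1.11 and 1.21 CPM in Rb-null 1 to 4 and 1.73, 0.736, 1.91 and 1.91 CPM in TET-MYCN 1 to 4, so that it was lowest in TET-MYCN 2, where Cryab was high. Reads of the 2 genes were counted without a stated strand setting.

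Genes that share only the crystallin name or fold also differed from the members. The 6 of them had 3 negative and 3 positive values, a median of 0.05 and 0 that passed. Crym, the thyroid hormone binding mu crystallin, was abundant at 215 to 249 CPM in Rb-null and 199 to 335 CPM in TET-MYCN libraries (0.24 ± 0.17). The quinone reductase gene Cryz had 0.16 ± 0.10, its relative Cryzl1 -0.06 ± 0.12, Cryl1 0.23 ± 0.19, and the beta-gamma fold genes Aim1 and Crybg3 -0.30 ± 0.19 and -0.25 ± 0.11. Crybg3 was the 1 with an unadjusted p under 0.05 (adjusted p = 0.311).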

How the data were processed

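RNA of microdissected peripheral retina was made into oligo-dT libraries, per the labels' protocols. The authors deposited whole-number counts per gene symbol, 1 table per library. The submitters' processing notes name CASAVA 1.8.2, TopHat2 2.0.8b, HTSeq 0.5.4p3 and build mm9, and neither annotation nor strand setting is given in the sources used here. Reads outside gene rows (28.3% to 31.7%) were left out.

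Counts were TMM-scaled and filterByExpr kept 15106 genes. The test was edgeR 4.0.16's quasi-likelihood F test (R 4.3.3, robust, group only), Benjamini-Hochberg over all genes tested, threshold 0.05, with SE as the absolute log2 fold change over the square root of F. Likeness used log2 CPM with a prior count of 2. Alternatives included DESeq2 1.42.0 and limma-voom (limma 3.58.1). The fits were tested on simulated data. A count of 3 is 0.130 to 0.202 CPM.

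The members and lists were chosen with earlier results of these data known. The naming rule took all members, the 10 genes nearest to the beta crystallins, the 5 nearest to each of Cryaa and Cryab, the 8 most abundant other lens genes, and all tested small heat shock and crystallin-named genes. Mip, Lim2, Bfsp2, Slc7a11, Birc7, Sag, Crx, Rcvrn, Pax6 and the neighbours of Lgsn and Bfsp1 were added after their values were seen. Some marker genes and the sums that hold them are not reported here.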

Additional observations from a re-analysis of the deposited data

Results flagged for a closer look

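Of 96 groups of 4 values examined, 3 held a value far from the other 3, by Dixon's test at 95%, where chance gives about 1 in 20. No member was among them. Bfsp2 stood at 5.69 CPM in TET-MYCN 4, with its group's other 3 at 1.52 to 1.79 CPM. Slc7a11 was at 1.73 CPM in Rb-null 1, against 2.69 to 2.75 CPM in the other Rb-null libraries. Hspb2 was at 0.736 CPM in TET-MYCN 2, the rest of its group lying at 1.73 to 1.91 CPM.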

How the results depend on the processing

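The members kept their sign and stayed short of the threshold under both other scalings, library sizes without lens genes, no filter, limma-voom and each library left out. DESeq2 called 7, at log2 fold changes of -3.56 for Cryaa, -3.67 for Cryba1, -3.80 for Cryba2, -3.23 for Cryba4, -3.14 for Crybb1, -2.58 for Crybb3 and -1.85 for Lgsn. Lgsn was not kept by the filter of 1 CPM in 4 libraries. The cause of each difference was not tested.

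With a library left out, log2 fold changes ran from -4.54 to -2.67 for Cryaa, -0.77 to -0.15 for Cryab, -4.84 to -2.84 for Cryba1, -4.63 to -3.15 for Cryba2, -3.66 to -2.48 for Cryba4, -3.68 to -2.30 for Crybb1, -4.84 to -2.84 for Crybb2, -2.91 to -1.83 for Crybb3, -2.06 to -1.53 for Lgsn and -1.27 to -0.66 for Bfsp1. Differences of mean log2 summed CPM were -1.66 for all members, -1.31 for the alpha and -2.80 for the beta crystallins and -1.02 for Lgsn with Bfsp1. Leaving out 1 library gave -2.27 to -1.12, -1.83 to -0.82, -3.62 to -2.15 and -1.31 to -0.75. Without Rb-null 2 and 3 the values were -0.46 for all members, -0.23 for the alpha and -1.32 for the beta crystallins and -0.41 for Lgsn with Bfsp1, and Cryab (0.25) and Bfsp1 (0.0075) turned sign.

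Genes called numbered 9, and 17 with no filter, 530 with DESeq2, 0 by voom (2262 of unadjusted p under 0.05), 3 with the replicate block, 0 to 230 with a library left out (1 without Rb-null 1, 132 without TET-MYCN 2, 230 without TET-MYCN 3, 0 without any other), 0 without Rb-null 2 and 3 (1306 unadjusted), and 41 in a fit added after seeing the data, which drops the pair of libraries richest in multiply aligned reads (Rb-null 1, TET-MYCN 3). No label says what a shared replicate number means. Same-numbered libraries' deviations correlated at -0.04, -0.06, -0.12 and -0.29, and so few libraries cannot decide whether they were paired. With the block 0 members passed.

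Small values of other genes turned sign. Without Rb-null 2 and 3 these were Cdh2 (0.035), Hspb11 (-0.036), Maf (0.031), Mip (0.22) and Wls (-0.017), and without the libraries richest in multiply aligned reads Cdh2 (0.032), Hspb11 (-0.16) and Wls (-0.023). Prox1 was -0.14 with limma-voom and -0.11 with the replicate block. Leaving out 1 library gave ranges that cross 0 for Bfsp2 (-0.43 to 0.67), Cdh2 (-0.11 to 0.018), Cryzl1 (-0.10 to 0.030), Hsf1 (-0.034 to 0.14), Hsf4 (-0.21 to 0.025), Hspb11 (-0.12 to 0.10), Mycn (-0.17 to 0.31), Prox1 (-0.22 to 0.28) and Rb1 (-0.14 to 0.036). By rank order in place of log2 CPM, 6 of the 10 genes outside the members nearest to the beta crystallins were shared.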
